A study of Mus musculus with 21 samples.

Results

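Neurexins, neuroligins and leucine-rich repeat transmembrane proteins (LRRTMs) are adhesion molecules of the synapse, and 9 of their genes were followed here through bulk RNA-Seq of mouse inner ear cells. They were listed by name, though with earlier results of these data known. They are *Nrxn2* and *Nrxn3*, *Nlgn1*, *Nlgn2* and *Nlgn3*, and *Lrrtm1*, *Lrrtm2*, *Lrrtm3* and *Lrrtm4*, or 9 of the 52550 genes in the count table. The libraries came from cochlear spiral ganglion neurons (SGNs) of 5 ages (E15.5, and postnatal P1, P8, P14 and P30), from inner ear hair cells (HCs) at P12 and from cochlear glia at P8, and each of the 7 groups had 3 replicates. The HCs were vestibular and cochlear together, so HC values cannot be assigned to the cochlear HCs that SGNs contact. All mice carried the reporter *Rosa26-CAG-loxp-stop-loxp-tdTomato/+* (Ai9), which marks a cell and its descendants in red once a Cre has acted. The Cre driver was *ShhCre/+* for SGNs (69 to 195 picked cells per library), *Atoh1-CreER+* for HCs (tamoxifen at P0 and P1, about 1200 cells per library) and *vGlut3-iCreER/+* for glia (tamoxifen at P2 and P3, 86 to 125 cells per library). The last driver labels inner HCs as well, so only tissue of the ganglion area had been dissected. Thus each cell type had a driver of its own, and only SGNs and glia, at P8, shared an age. Cell type therefore cannot be told apart from driver, and HCs cannot be told apart from their age.

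Neurexins sit mainly in the presynaptic membrane and bind across the cleft to postsynaptic partners, among them the neuroligins and the LRRTMs. *Nlgn1* is best known from excitatory synapses, *Nlgn2* from inhibitory ones and *Nlgn3* from both, while LRRTM proteins are known from excitatory synapses and help to hold glutamate receptors there. SGNs lie on both sides of this system, since their peripheral endings are postsynaptic to cochlear HCs and their central axons form presynaptic endings in the brainstem. Glial cells, too, are known to carry some neuroligins.

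RefSeq start sites on GRCm38.p6 gave 10 promoter windows for 6 of the 9 genes (*Nrxn3*, *Nlgn1*, *Nlgn2*, *Lrrtm1*, *Lrrtm3* and *Lrrtm4*), each of 300 bases, with 250 before and 50 after the start. The 3 printed below belong to the gene that was most even across the SGN ages, *Nlgn2* (chr11:69837735-69838034, minus strand), and to the LRRTM gene that was called higher in SGNs than in glia, *Lrrtm3* (chr10:64090206-64090505, minus strand), and the one that was lower there by the most, *Lrrtm4* (chr6:80018627-80018926, plus strand, the first of 2 windows). Capitals mark the GC box GGGCGG, the E-box CAGCTG and the TATA motif TATAAA, each read on both strands. The CCAAT box was searched on both strands as well.
Nlgn2: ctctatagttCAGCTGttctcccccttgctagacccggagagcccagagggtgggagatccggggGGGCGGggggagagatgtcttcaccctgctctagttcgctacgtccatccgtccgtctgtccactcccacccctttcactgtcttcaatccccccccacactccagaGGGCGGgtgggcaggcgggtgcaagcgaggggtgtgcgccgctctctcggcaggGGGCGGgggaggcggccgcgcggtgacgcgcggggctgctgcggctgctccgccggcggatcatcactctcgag
Lrrtm3: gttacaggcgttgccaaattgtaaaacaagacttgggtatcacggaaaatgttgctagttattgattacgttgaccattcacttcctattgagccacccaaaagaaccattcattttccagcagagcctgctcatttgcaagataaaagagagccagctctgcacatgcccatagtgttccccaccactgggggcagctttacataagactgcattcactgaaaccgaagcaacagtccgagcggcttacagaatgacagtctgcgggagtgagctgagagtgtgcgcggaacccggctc
Lrrtm4: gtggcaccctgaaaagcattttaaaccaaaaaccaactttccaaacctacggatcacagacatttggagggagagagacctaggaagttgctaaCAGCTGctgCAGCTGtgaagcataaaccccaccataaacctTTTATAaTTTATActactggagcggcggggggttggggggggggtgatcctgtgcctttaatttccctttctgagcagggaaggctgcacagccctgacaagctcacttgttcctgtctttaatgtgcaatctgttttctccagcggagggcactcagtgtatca
The *Nlgn2* window held 26 CpG pairs, more than 83.1% of the 32851 windows in the table, with 3 copies of GGGCGG and 1 of CAGCTG. The *Lrrtm3* window held 10 CpG pairs and none of the searched letters. The *Lrrtm4* window held 4 CpG pairs, 2 copies of CAGCTG and 2 of TATAAA on the other strand. Over all windows, 35.7% held the GC box, 16.3% the E-box, 37.4% the CCAAT box and 13.6% the TATA motif on either strand, and the median was 7 CpG pairs. These matches are a description of the letters and were not tested as sites. *Nrxn3* had 3 windows with 2, 6 and 16 CpG pairs, and the gene counts used below cannot tell transcripts from different starts apart.

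The total on genes ranged from 10368240 to 37287489 counts per library (median 20384100). Levels are given as RPKM scaled by the trimmed mean of M values (TMM), that is, CPM divided by the TMM factor of the library and by the gene length in kilobases. This puts genes and libraries on a common scale, within limits. Exons shared with another gene (41.2% of the exon bases of *Nlgn3* and 25.1% of *Lrrtm4*) may lose or share reads, which bears on comparisons between genes and on family shares. Some orders between libraries depended on the unit, as given below. In bulk libraries, fewer cells of a type and less RNA per cell cannot be told apart. The 5 SGN markers *Slc17a6*, *Slc17a7*, *Lypd1*, *Snap25* and *Tubb3* summed to 268 to 2690.3 in SGN libraries, 18.1 to 23.7 in HCs (with *Tubb3* at 0 in at least 1 library) and 10.8 to 145 in glia. The 5 HC markers (*Myo6*, *Myo7a*, *Pou4f3*, *Gfi1* and *Otof*) summed to 698 to 748 in HCs, 13.9 to 87.7 in SGNs and 40.5 to 47.9 in glia. The 3 glial markers *Sox10*, *Foxd3* and *Mbp* summed to 366 to 679.8 in glia, 8.94 to 11.5 in HCs and 2.96 to 86.1 in SGNs. *Sox10* and *Myo6* had been used by the authors to accept samples before sequencing. Their check after sequencing, which samples also had to pass, used *Slc17a6*, *Slc17a7*, *Lypd1*, *Myo6*, *Myo7a*, *Pou4f3*, *Gfi1*, *Sox10* and *Foxd3* among its markers. The sums are therefore no independent test of purity. Within SGNs the glial sum was highest at P8 (49.7 to 86.1), and within glia the SGN sum was 145 in replicate 1 against 20.03 and 10.8 in the others. The connective tissue markers *Col1a1*, *Col1a2*, *Dcn* and *Lum* summed to 139 to 264 in glia and 0.173 to 109 in SGNs. Their part in the levels of the glial libraries was not tested. Labels do not say that replicates came from separate animals, so p-values measure the spread between these samples only.

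**Figure D1:**
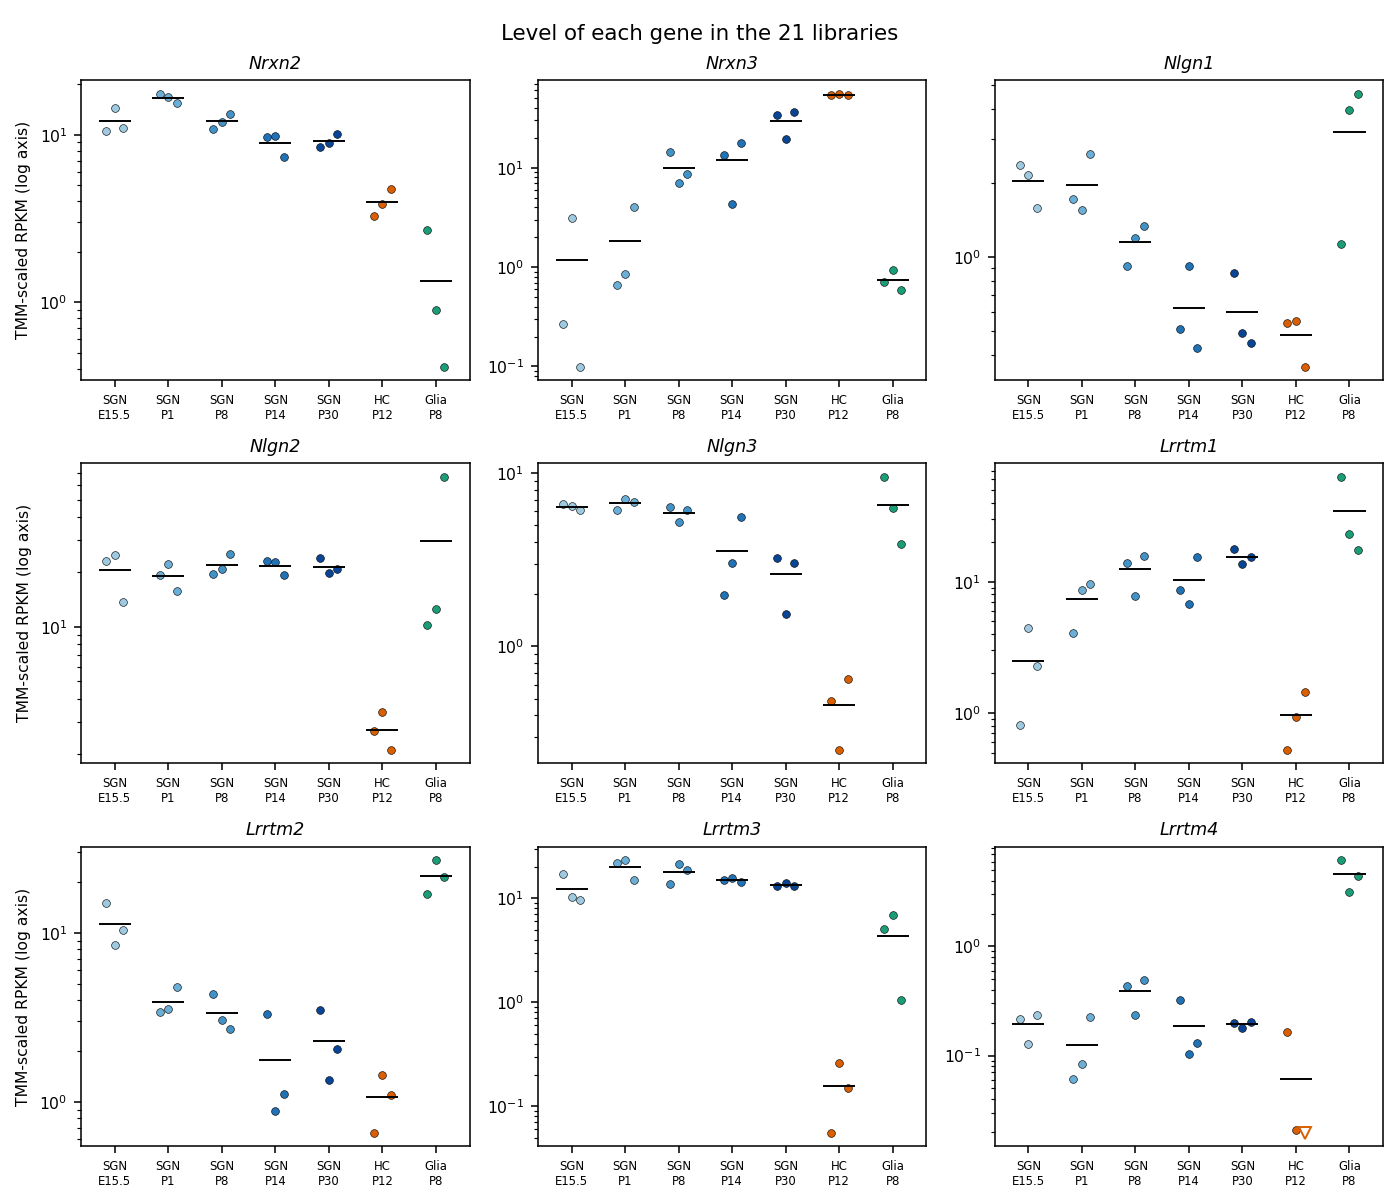
Level of each of the 9 genes in the 21 libraries, in TMM-scaled RPKM on log axes, with 1 panel per gene, the 7 groups along the horizontal axis, 1 point per library and a bar at the group mean; the open triangle marks HC replicate 3, which had 0 counts of *Lrrtm4* and is drawn at the level of 3 counts. *Nrxn3* climbs from 0.0999 to 3.14 at E15.5 to 19.5 to 36.1 at P30 and is highest in HCs, whereas *Nlgn2* keeps between 13.7 and 25.1 at all SGN ages.

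The level of *Nrxn3* in SGNs rose steeply with age and was highest of all in HCs. It was 0.270, 3.14 and 0.0999 in the 3 libraries at E15.5 and 0.658, 0.857 and 4.03 at P1. It was 14.4, 6.98 and 8.63 at P8, 13.6, 4.32 and 17.9 at P14, and 34.0, 19.5 and 36.1 at P30. The libraries of E15.5 and P1 overlapped, those of P8 lay above both, P8 and P14 overlapped, and all P30 libraries lay above all P14 libraries. In HCs it was 54.0, 55.4 and 53.8 (54.4 ± 0.903, SD, n = 3), and in glia 0.705, 0.926 and 0.590. The low values rest on few counts, 26 to 815 at E15.5 and 77 to 172 in glia, where HC libraries held 11516 to 16887.

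By limma-voom, *Nrxn3* rose between E15.5 and P30 by 5.95 on the log2 scale (SE 1.19, adjusted p = 0.000888), the widest change among the 9 genes. The size, though not the call, depended on E15.5 replicate 2, without which it was 7.49, and on replicate 3, without which it was 4.71. The step from P1 to P8 was called (log2 fold change 2.99, SE 0.72, adjusted p = 0.0132), but the call was lost without P1 replicate 1 (2.39, adjusted p = 0.0968) and grew to 3.71 without P1 replicate 3. It was also lost with edgeR's quasi-likelihood test (2.44, adjusted p = 0.158) and with DESeq2 (2.42, adjusted p = 0.117). The step from E15.5 to P1 was 1.39 (SE 1.32, adjusted p = 0.523) and that from P14 to P30 was 1.49 (SE 0.48, adjusted p = 0.423), and neither passed. The summed HC markers were 13.9 to 19.3 at E15.5 and 28.9 to 36.9 at P30, against 698 to 748 in HCs, and their part in the rise was not tested.

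Averaged over the 5 ages, *Nrxn3* was lower in SGNs than in HCs, with a log2 fold change of -3.64 (SE 0.32, adjusted p = 5.53e-09), and it was the only one of the 9 genes called in that direction. The SGN group means behind this average ran from 1.17 at E15.5 to 29.9 at P30, against 54.4 in HCs, so the gap depended on age. Against glia, *Nrxn3* was 6.22 log2 units higher in HCs (SE 0.99, adjusted p = 3.88e-05). SGNs at P8 lay above glia of the same age by 3.72 (SE 1.02, adjusted p = 0.00556), a call at 4-fold and an adjusted p under 0.01 that was lost without SGN P8 replicate 1 (3.40, adjusted p = 0.0124) and without glial replicate 1, 2 or 3 (3.69, 3.87 and 3.61, with adjusted p = 0.0319, 0.0211 and 0.0187). The *Nrxn3* call was also lost with sample quality weights (3.62, adjusted p = 0.119) and with no filter (3.86, adjusted p = 0.0137). With the 5 ages averaged, the difference from glia was 2.58 (SE 1.00, adjusted p = 0.0377) and was not called.

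*Nrxn2* took another course, with no step between SGN ages called and a low level in glia. It was 10.46, 14.5 and 11.02 at E15.5, 17.5, 16.7 and 15.52 at P1, and 10.8, 11.96 and 13.3 at P8. It was 9.62, 9.84 and 7.37 at P14 and 8.48, 8.87 and 10.1 at P30. All P1 libraries lay above the libraries of the other SGN ages, and P14 and P30 overlapped each other below them. As TPM the libraries of P14 and P30 did not lie below, with P14 replicate 1 at 20.8 and P8 replicate 3 at 12.9. The steps into and out of P1 were 0.48 and -0.48 on the log2 scale (SE 0.16 and 0.15) and did not pass at an adjusted p of 0.0609 and 0.0505, and from E15.5 to P30 the change was -0.42 (SE 0.17, adjusted p = 0.0571).

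In HCs *Nrxn2* was 3.26, 3.88 and 4.73, below every SGN library, and in glia it was 2.68, 0.896 and 0.413. This order depended on the unit, since as TPM the HC libraries (11.2, 14.2 and 17.8) overlapped those of SGNs at P30 (10.02, 14.6 and 8.95) and had the higher mean. SGNs were higher than glia by 3.30 (SE 0.42, adjusted p = 1.67e-06), and at P8 alone by 3.36 (SE 0.43, adjusted p = 4.61e-06). Glial replicate 1, the glial library with the highest SGN marker sum, also held the most *Nrxn2*, and without it the 2 differences were 4.20 and 4.26. The difference from HCs, 1.52 (SE 0.22, adjusted p = 7.38e-06), was under 4-fold, and so was that of HCs from glia, 1.78 (SE 0.46, adjusted p = 0.00385), which was 2.68 (adjusted p = 0.000651) and called without glial replicate 1.

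Because the 2 neurexins moved separately, their balance changed. *Nrxn3* made up 7.08% ± 9.33 (SD, n = 3) of the summed level of both at E15.5 and 9.71% ± 9.47 at P1. It made up 44.5% ± 11.1 at P8, 53.3% ± 20.7 at P14 and 75.6% ± 6.01 at P30. In HCs its share was 93.2% ± 1.21. Their summed level was 13.2 at E15.5 and 39.0 at P30 on average, and in glia, where *Nrxn3* held 43.5% ± 20.1, it was 2.07.

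**Figure D2:**
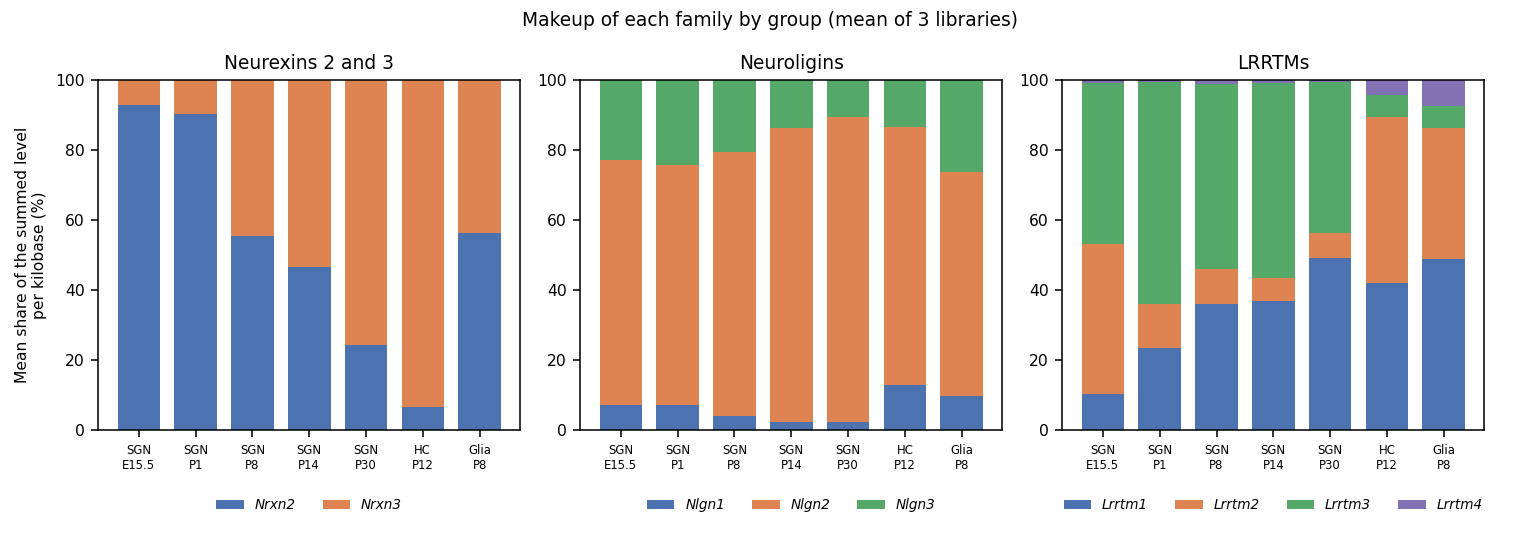
Share of each gene in the summed level of its family, in percent of TMM-scaled RPKM, as stacked bars of the mean of 3 libraries for each of the 7 groups. *Nrxn3* grows from 7.08% at E15.5 to 75.6% at P30 within the neurexin pair, *Nlgn2* holds the largest neuroligin share in every group, and *Lrrtm3* falls to 6.48% in HCs and 6.43% in glia.

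Of the neuroligins, *Nlgn2* had the highest level and the most even course. It was 22.9, 24.7 and 13.7 at E15.5, 19.2, 22.0 and 15.8 at P1, and 19.5, 20.7 and 25.1 at P8. It was 23.1, 22.7 and 19.3 at P14 and 23.9, 19.8 and 20.7 at P30. The libraries of neighboring ages overlapped throughout. No step passed, and the difference from E15.5 to P30 was 0.10 (SE 0.22, adjusted p = 0.731), a value that became -0.37 when libraries were scaled by their totals alone.

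In HCs *Nlgn2* was 2.66, 3.40 and 2.11, below every SGN library. SGNs were higher by 2.95 (SE 0.55, adjusted p = 0.000116), and HCs were lower than glia by 2.78 on the log2 scale (log2 fold change -2.78, SE 0.62, adjusted p = 0.00106). The 3 glial libraries disagreed with one another, at 10.3, 12.4 and 66.5, with 1149, 826 and 3984 counts. SGNs lay between them, and the difference of SGNs from glia was 0.17 (SE 0.33, adjusted p = 0.696), or 0.23 at P8 (adjusted p = 0.666). The HC difference from glia was -2.06 without glial replicate 3 and -3.39 without glial replicate 1. It was not called when only these 6 libraries were fitted (-2.57, adjusted p = 0.0643).

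*Nlgn1* and *Nlgn3* both fell between E15.5 and P30. *Nlgn1* was 2.37, 2.16 and 1.58 at E15.5, 1.73, 1.55 and 2.62 at P1, and 0.922, 1.20 and 1.34 at P8. It was 0.511, 0.916 and 0.426 at P14 and 0.860, 0.490 and 0.448 at P30, so that all P30 libraries lay below all E15.5 libraries. The log2 fold change was -1.74 (SE 0.40, adjusted p = 0.00275), with no single step called. The summed glial markers also went from 6.61 to 17.6 at E15.5 to 2.96 to 10.97 at P30, with *Foxd3* called lower (-4.20, SE 1.53, adjusted p = 0.0372), and their part in the lower levels of *Nlgn1*, *Nlgn3* and *Lrrtm2* was not tested.

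*Nlgn3* stayed at 6.59, 6.45 and 6.09 at E15.5, 6.13, 7.10 and 6.83 at P1, and 6.35, 5.19 and 6.09 at P8. It was 1.98, 3.04 and 5.58 at P14 and 3.25, 1.53 and 3.03 at P30. The later ages thus spread more widely, with P14 replicate 3 still within the range of P8. From E15.5 to P30 the log2 fold change was -1.34 (SE 0.32, adjusted p = 0.00337). The step from P8 to P14 was -0.92 (SE 0.30, adjusted p = 0.188) and was not called.

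Both genes were also present in glia and low in HCs. *Nlgn1* was 1.13, 3.94 and 4.59 in glia, where replicates 2 and 3 exceeded every SGN library and replicate 1 did not. In HCs it was 0.537, 0.549 and 0.359, which overlapped SGNs at P14 and P30. *Nlgn3* was 9.46, 6.26 and 3.89 in glia, and 0.484, 0.254 and 0.650 in HCs, below every SGN library. *Nlgn3* was higher in SGNs than in HCs (log2 fold change 3.39, SE 0.55, adjusted p = 2.48e-05) and lower in HCs than in glia (-3.92, SE 0.60, adjusted p = 2.51e-05). For *Nlgn1* the SGN difference from HCs was 1.21 (SE 0.52, adjusted p = 0.0554). SGNs differed from glia by -1.14 for *Nlgn1* (SE 0.35, adjusted p = 0.0107) and by -0.53 for *Nlgn3* (SE 0.28, adjusted p = 0.12), and neither was called.

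*Nlgn1* was also lower in HCs than in glia, at -2.35 (SE 0.58, adjusted p = 0.00252). This call was lost without HC replicate 3 (-2.14, adjusted p = 0.0178) or glial replicate 3 (-1.99, adjusted p = 0.00753), while without glial replicate 1 *Nlgn1* differed by -3.18. *Nlgn3* shares 41.2% of its exon bases with the same-strand gene *Gm21986*, so its counts may leave out or share reads there, and *Gm21986* itself held at most 94 counts in a library where *Nlgn3* held 55 to 1989.

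The summed level of the 3 neuroligins had group means of 28.9, 27.6, 28.8, 25.8 and 24.6 from E15.5 to P30. *Nlgn2* supplied 70.0% of it at E15.5 and 87.2% at P30. In HCs the sum was 3.67 and in glia 39.5, with glial libraries from 20.8 to 74.99. *Nlgn2* was 73.6% of the sum in HCs and 64.3% in glia.

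Among the LRRTMs, *Lrrtm1* and *Lrrtm2* moved in opposite directions as SGNs matured. *Lrrtm1* was 0.815, 4.42 and 2.28 at E15.5, 4.05, 8.68 and 9.57 at P1, and 13.9, 7.81 and 15.7 at P8. It was 8.61, 6.79 and 15.48 at P14 and 17.6, 13.5 and 15.3 at P30. Neighboring ages overlapped, but every P30 library lay above every E15.5 and P1 library. It rose from E15.5 to P30 by 2.81 on the log2 scale (SE 0.63, adjusted p = 0.00204). The first step, to P1, was 1.60 (SE 0.65, adjusted p = 0.117), and it was called without P1 replicate 1 (2.07, adjusted p = 0.0477) and with DESeq2 (1.53, adjusted p = 0.0176). The summed glial markers were 6.61 to 17.6 at E15.5 and 2.96 to 10.97 at P30, and their part in the rise was not tested.

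*Lrrtm2* was 14.9, 8.49 and 10.4 at E15.5 and 3.42, 3.55 and 4.78 at P1, without overlap. It was 4.33, 3.07 and 2.69 at P8, 3.33, 0.884 and 1.12 at P14, and 3.51, 1.34 and 2.07 at P30. It fell by 1.496 on the log2 scale between E15.5 and P1 (SE 0.33, adjusted p = 0.00923), the only member called at that step, with an adjusted p of 0.0539 under edgeR's quasi-likelihood test. From E15.5 to P30 it fell by 2.26 (SE 0.41, adjusted p = 0.00041), over which the glial marker sum was lower as well, as given beside *Nlgn1*.

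*Lrrtm3* was the LRRTM with the highest level in SGNs on average from E15.5 to P14. It was 17.0, 10.4 and 9.59 at E15.5, 21.9, 23.2 and 14.9 at P1, and 13.8, 21.4 and 18.8 at P8. It was 14.9, 15.6 and 14.4 at P14 and 13.1, 14.2 and 13.2 at P30. No step was called, and the difference from E15.5 to P30 was 0.18 (SE 0.26, adjusted p = 0.608), or -0.29 with library totals alone as the scale. *Lrrtm4* was between 0.0604 and 0.492 in SGNs, on 12 to 87 counts, and reached its highest values at P8 (0.435, 0.237 and 0.492). Its difference from E15.5 to P30 was 0.03 (SE 0.80, adjusted p = 0.983), where depth allowed little precision. Only the P8 libraries brought *Lrrtm4* past the filter of the SGN fit.

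With the SGN ages averaged, the glial libraries, which also held connective tissue markers, had more *Lrrtm1*, *Lrrtm2* and *Lrrtm4* than SGNs, and less *Lrrtm3*. *Lrrtm4* was 6.17, 3.17 and 4.41 in glia, on 224 to 735 counts, all above the highest SGN library. Its log2 fold change was -4.61 for SGNs against glia (SE 0.44, adjusted p = 2.69e-08) and -3.65 at P8 (SE 0.63, adjusted p = 0.000109). *Lrrtm2* was 17.1, 27.0 and 21.4 in glia, also above every SGN library, with differences of -2.60 (SE 0.24, adjusted p = 2.09e-08) and, at P8, -2.64 (SE 0.34, adjusted p = 4.78e-06). P8 was the SGN age with the highest glial marker sum, 49.7 to 86.1 against 366 to 679.8 in glia. Its part in the P8 levels of *Lrrtm4* and *Lrrtm2* was not tested.

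*Lrrtm1* was 62.6, 22.9 and 17.4 in glia, where replicate 3 was within the SGN range (its highest SGN library was 17.6). Its difference was -2.10 (SE 0.35, adjusted p = 4.6e-05), which came to -1.41 (adjusted p = 0.00506) without glial replicate 1 and to -1.98 without E15.5 replicate 1, both under 4-fold. At P8 it was -1.46 (SE 0.42, adjusted p = 0.00841) and not called. *Lrrtm3* was 5.02, 6.83 and 1.04 in glia, on 413, 333 and 46 counts, below every SGN library. SGNs were higher by 2.09 (SE 0.45, adjusted p = 0.000602) and at P8 by 2.30 (SE 0.47, adjusted p = 0.000588). Without glial replicate 3 these differences were 1.42 and 1.63, under 4-fold, and with sample quality weights they missed the threshold (adjusted p = 0.0220 and 0.0121). The P8 call of *Lrrtm3* was also lost with DESeq2 (1.98, under 4-fold) and when only those libraries were fitted (2.38, adjusted p = 0.0209).

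HCs held little of any LRRTM, though only *Lrrtm3* lay below every SGN library. The lowest SGN libraries were 0.815 for *Lrrtm1* (at E15.5), 0.884 for *Lrrtm2* (at P14) and 0.0604 for *Lrrtm4* (at P1), each within or below the HC range. *Lrrtm1* was 0.526, 0.932 and 1.46, *Lrrtm2* 0.657, 1.44 and 1.10, and *Lrrtm3* 0.0556, 0.262 and 0.151, on 4, 26 and 16 counts. *Lrrtm4* was 0.163 and 0.0209 on 17 and 3 counts, and 0 counts in HC replicate 3 allow a level of up to 0.0196, which covers counting error only. *Lrrtm3* showed the widest gap, with SGNs higher by 6.77 (SE 0.83, adjusted p = 6.76e-07).

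*Lrrtm1* was higher in SGNs than in HCs by 3.02 (SE 0.83, adjusted p = 0.00413), a call lost without HC replicate 1, 2 or 3 (2.69, 3.03 and 3.39, with adjusted p = 0.0220, 0.0229 and 0.0165). For *Lrrtm4* the difference was 3.05 (SE 0.89, adjusted p = 0.00645). It came to 1.60 (adjusted p = 0.156) without HC replicate 3, 3.09 (adjusted p = 0.0286) without HC replicate 2 and 4.42 without HC replicate 1, and it was not called by edgeR's quasi-likelihood test (1.75, adjusted p = 0.0920) or DESeq2 (1.58, adjusted p = 0.0375). *Lrrtm2* differed by 1.72 (SE 0.50, adjusted p = 0.00631), under 4-fold.

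Each LRRTM was lower in HCs than in glia. The log2 fold changes were -5.12 for *Lrrtm1* (SE 0.86, adjusted p = 6.73e-05), -4.32 for *Lrrtm2* (SE 0.52, adjusted p = 1.5e-06), -4.68 for *Lrrtm3* (SE 0.93, adjusted p = 0.000414) and -7.66 for *Lrrtm4* (SE 0.89, adjusted p = 1.1e-06). Single libraries moved these sizes but not the calls. *Lrrtm4* differed by -9.03 without HC replicate 1 and -6.21 without HC replicate 3, *Lrrtm1* by -4.42 without glial replicate 1, and *Lrrtm3* by -5.34 without glial replicate 3.

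The summed level of the 4 LRRTMs had group means of 26.3, 31.5, 34.2, 27.2 and 31.5 from E15.5 to P30, while its makeup shifted. *Lrrtm1* was 10.496% of the sum at E15.5 and 49.1% at P30, *Lrrtm2* 42.7% and 7.17%, and *Lrrtm3* 46.1% and 43.1%. *Lrrtm4* was at most 1.13% of the SGN sum as a group mean and 7.35% of the glial sum. Glia had the highest sum, with libraries from 44.3 to 90.9, and HCs the lowest, with a mean of 2.25.

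Counted over the 9 genes, the steps between ages changed few of them. From E15.5 to P1, 0 members were called higher and 1 lower at 2-fold and an adjusted p under 0.05, where 5.08% of the 15113 genes tested were called higher and 3.18% lower. From P1 to P8, 1 was higher and 0 lower (4.29% and 3.15% of all genes). From P8 to P14 limma-voom called 0 of 9 in either direction (0.251% and 0.285% of all genes). There 4 members had an unadjusted p under 0.05, and edgeR's quasi-likelihood test and DESeq2 also called 0 with 3 each at that level. From P14 to P30, 0 of 9 were called as well (0.0331% and 0.0265% of all genes), with 1 member at an unadjusted p under 0.05 by limma-voom and 0 by both other tools.

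Across the whole interval from E15.5 to P30, 2 members were higher (*Nrxn3* and *Lrrtm1*) and 3 lower (*Nlgn1*, *Nlgn3* and *Lrrtm2*), where 18.4% of all genes were called higher and 16.2% lower. The median log2 fold change of the members was 0.03, and that of all genes -0.01. All 5 of these calls held under each alternative tried and with each library of those ages left out.

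Between cell types the thresholds were 4-fold and an adjusted p under 0.01. SGNs exceeded HCs in 5 members (*Nlgn2*, *Nlgn3*, *Lrrtm1*, *Lrrtm3* and *Lrrtm4*) and lay below them in 1 (*Nrxn3*), where 10.5% of the 17531 genes tested were called higher and 16.2% lower. The median of the members was 2.95, against 0.02 for all genes. SGNs exceeded glia in 2 (*Nrxn2* and *Lrrtm3*) and lay below in 3 (*Lrrtm1*, *Lrrtm2* and *Lrrtm4*), with 14.3% and 10.4% of all genes. At P8 alone, 3 members were higher (*Nrxn2*, *Nrxn3* and *Lrrtm3*) and 2 lower (*Lrrtm2* and *Lrrtm4*), with 13.4% and 7.53% of all genes. HCs exceeded glia in 1 member (*Nrxn3*) and lay below in 7, all but *Nrxn2* and *Nrxn3*, with 16.2% and 8.18% of all genes. The median of the members there was -3.92, against 0.14 for all genes. These comparisons share libraries, so their calls are not independent of one another.

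**Figure D3:**
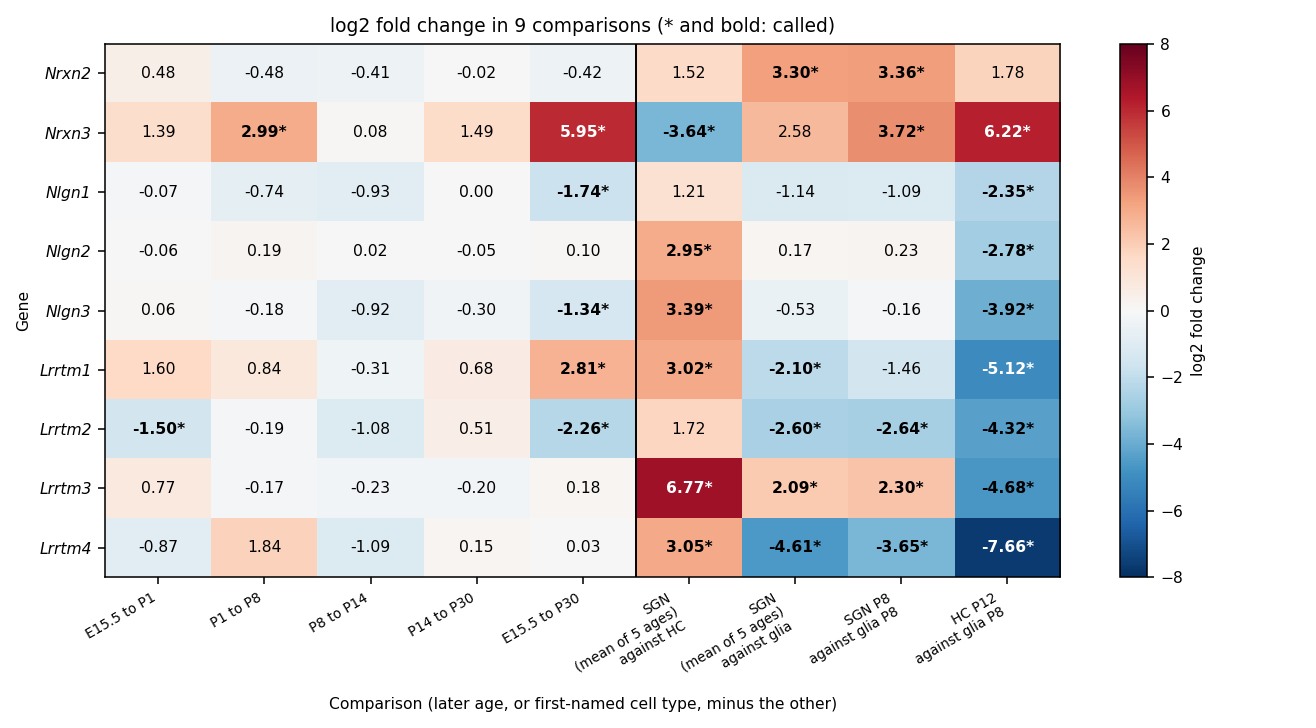
Fitted log2 fold change of the 9 genes (vertical axis) in 9 comparisons (horizontal axis), with 5 between SGN ages left of the line and 4 between cell types right of it; color gives the sign and size, and bold values with an asterisk were called. The column of HCs against glia holds 7 called negative values and 1 called positive value, *Nrxn3* at 6.22, and the columns P8 to P14 and P14 to P30 hold none called.

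On GRCm38, *Nrxn2* lies at chr19:6418731-6544169, *Nrxn3* at chr12:88722876-90334935, *Nlgn1* at chr3:25426215-26332460, *Nlgn2* at chr11:69823122-69837784 and *Nlgn3* at chrX:101299168-101325963. *Lrrtm1* (chr6:77242689-77257791), *Lrrtm2* (chr18:35209003-35215024) and *Lrrtm3* (chr10:63928472-64090277) each lie inside an alpha-catenin gene on its opposite strand, in *Ctnna2*, *Ctnna1* and *Ctnna3*. *Lrrtm4* lies at chr6:80018877-80810143. The alpha-catenins link cadherins to the actin cytoskeleton. The strand setting of the counting is not named, so reads of overlapping exons could not be told apart. Exons overlapped by 0 bases for *Lrrtm1* and *Lrrtm3*, and by 1.58% of the exon bases of *Lrrtm2*. *Lrrtm4* shares 25.1% of its exon bases with the antisense gene *Gm4409*, which held at most 21 counts in a library and 0 in every glial and HC library.

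Each of the 3 host genes had a pattern of its own. *Ctnna2* fell in SGNs from E15.5 to P30 (log2 fold change -1.89, SE 0.26, adjusted p = 2.95e-05), whereas *Lrrtm1* inside it rose. *Ctnna2* was 5.52 higher in SGNs than in glia (SE 0.76, adjusted p = 4.92e-06), where *Lrrtm1* was lower. *Ctnna3* was lower in SGNs than in glia (-3.37, SE 0.46, adjusted p = 4.19e-06), where *Lrrtm3* was higher, although both were lower in HCs than in glia (*Ctnna3* -8.07, SE 1.02, adjusted p = 2.96e-06). *Ctnna1* and *Lrrtm2* were both lower in SGNs than in glia (*Ctnna1* -3.76, SE 0.26, adjusted p = 2.01e-10), and in glia *Ctnna1* was 97.2, 121.4 and 149.2.

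**Figure D4:**
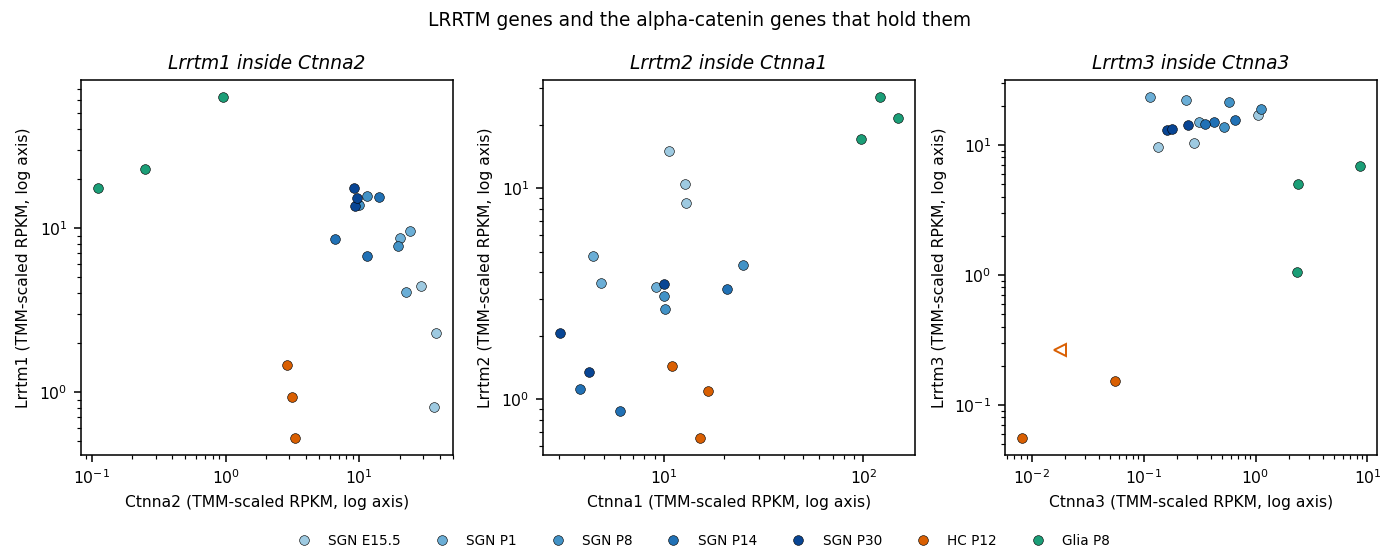
Level of *Lrrtm1*, *Lrrtm2* and *Lrrtm3* (vertical axes) against the alpha-catenin gene around each (horizontal axes), in TMM-scaled RPKM on log axes, with 1 point per library colored by group; the open triangle is HC replicate 2, with 0 counts of *Ctnna3*, drawn at the level of 3 counts (0.0178). Glial libraries lie at the left for *Ctnna2* (0.111 to 0.951) and at the right for *Ctnna1* (97.2 to 149.2) and *Ctnna3* (2.35 to 8.61).

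The other genes of the pathway came from 3 lists. The first holds 21 ligands and regulators of neurexins and neuroligins, such as cerebellins, neurexophilins, calsyntenins, latrophilins and the MDGA proteins, which bind neuroligins and block neurexin. From E15.5 to P30, 4 of 14 tested were higher and 1 lower, where 18.4% and 16.2% of all genes were, with *Nxph4*, a neurexophilin, at 5.39 (SE 1.53, adjusted p = 0.0102), *Igsf21*, a neurexin ligand, at 3.23 (SE 1.00, adjusted p = 0.0169) and *Adgrl2*, a latrophilin, at -2.52 (SE 0.31, adjusted p = 9.87e-06). Of 15 tested between cell types, 8 were higher in SGNs than in HCs and 1 lower (10.5% and 16.2% of all genes), led by *Mdga2* at 7.73 (SE 1.06, adjusted p = 3.03e-06). Against glia 7 were higher and 1 lower (14.3% and 10.4% of all genes), led by *Clstn2*, a calsyntenin, at 5.13 (SE 0.85, adjusted p = 4.38e-05), with *Mdga1* at 5.07 (SE 0.63, adjusted p = 1.19e-06). At P8, 5 were higher in SGNs than in glia and 1 lower (13.4% and 7.53% of all genes), led by *Igsf21* at 5.77 (SE 0.98, adjusted p = 8.78e-05). HCs were higher than glia in 3 and lower in 2 (16.2% and 8.18% of all genes), among them *Cbln1*, a cerebellin that bridges neurexins to postsynaptic receptors, at 4.66 (SE 0.78, adjusted p = 6.66e-05) and *Mdga2* at -9.07 (SE 1.08, adjusted p = 1.53e-06). Some of these sizes rest on few counts in the lower group. Examples are 2 to 18 counts of *Nxph4* at E15.5, 1 to 22 of *Mdga2* in HCs and 4 to 10 of *Cbln1* in glia.

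The second list holds 15 genes, the LAR-type receptor phosphatases *Ptprd*, *Ptprs* and *Ptprf* of a parallel presynaptic adhesion system and genes grouped with them. *Flrt1*, *Flrt2* and *Flrt3* are counted in the group. Of 14 tested, 0 rose and 3 fell from E15.5 to P30, against 18.4% and 16.2% of all genes, *Ptprf*, which encodes LAR itself, at -1.62 (SE 0.19, adjusted p = 6.75e-06), *Lrfn5* at -1.34 and *Lrfn3* at -1.13. SGNs were higher than HCs in 5 and lower in 0 (10.5% and 16.2% of all genes), led by *Lrfn5* at 7.20 (SE 1.00, adjusted p = 3.59e-06), and higher than glia in 6 and lower in 1 (14.3% and 10.4% of all genes), *Il1rap*, at -4.86 (SE 0.41, adjusted p = 4.13e-09). At P8 the counts against glia were again 6 and 1 (13.4% and 7.53% of all genes), led by *Lrfn2* at 6.33 (SE 1.17, adjusted p = 0.000196). HCs were higher than glia in 0 and lower in 2 (16.2% and 8.18% of all genes), *Il1rap* and *Ptprs*.

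The third list holds 19 cytoplasmic scaffolds, all tested. From E15.5 to P30, 6 rose and 3 fell, against 18.4% and 16.2% of all genes. *Lin7b* and *Apba1*, adaptors of the CASK complex that binds neurexins, rose by 3.11 (SE 0.82, adjusted p = 0.00661) and 2.28 (SE 0.22, adjusted p = 6.2e-07), and *Dlg3*, a postsynaptic scaffold, changed by -1.95 (SE 0.31, adjusted p = 0.000124). SGNs were higher than HCs in 5 and lower in 2 (10.5% and 16.2% of all genes), with *Shank1* at 4.73 (SE 0.57, adjusted p = 4.76e-07) and *Shank2* at -4.20 (SE 0.21, adjusted p = 8.5e-13), both scaffolds of excitatory synapses. They were higher than glia in 5 and lower in 0, both over the 5 ages (14.3% and 10.4% of all genes) and at P8 (13.4% and 7.53%), led by *Dlg2*, a PSD-95 relative, at 4.02 (SE 0.50, adjusted p = 1.36e-06) and 4.25 (SE 0.51, adjusted p = 2.16e-06). HCs were higher than glia in 3 and lower in 2 (16.2% and 8.18% of all genes). The medians of the 3 lists from E15.5 to P30 were 0.44, -0.28 and 0.16, against -0.01 for all genes.

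Between neighboring ages, most partner genes called by limma-voom were called at the first step. Partner calls are given for that fit only, and whether they held under the alternatives is not reported here. From E15.5 to P1, 2 genes of the first list, 1 of the second and 4 scaffolds, or 7 of the 47 tested, were called higher and 0 lower (5.08% and 3.18% of all genes). Among them were *C1ql3* at 2.01 (SE 0.44, adjusted p = 0.00891) and *Dlg2* at 1.31 (SE 0.18, adjusted p = 0.000437). The gene of the second list was *Flrt1* at 1.77, and the phosphatase genes *Ptprd*, *Ptprs* and *Ptprf* were not called. From P1 to P8, 3 were called higher, *Igsf21* (1.43), *Dag1* (1.05) and *Il1rap* (3.56), and 0 lower (4.29% and 3.15% of all genes). The summed glial markers were 3.91 to 12.96 at P1 and 49.7 to 86.1 at P8, where *Mbp* (3.50) and *Sox10* (3.07) were called higher. *Dag1* was 270.8 to 360.8 in glia, 18.7 to 25.02 at P1 and 37.1 to 52.95 at P8, and *Il1rap* was 2.69 to 5.39 in glia, 0.019 to 0.080 at P1 and 0.384 to 0.625 at P8. The part of the glial markers in these rises was not tested. From P8 to P14 the scaffold *Sdcbp* was higher at 1.15 (SE 0.25, adjusted p = 0.0454), 1 of 47, with 0 lower, against 0.251% and 0.285% of all genes, and at P14 to P30 limma-voom called 0 of the 47 (0.0331% and 0.0265% of all genes).

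**Figure D5:**
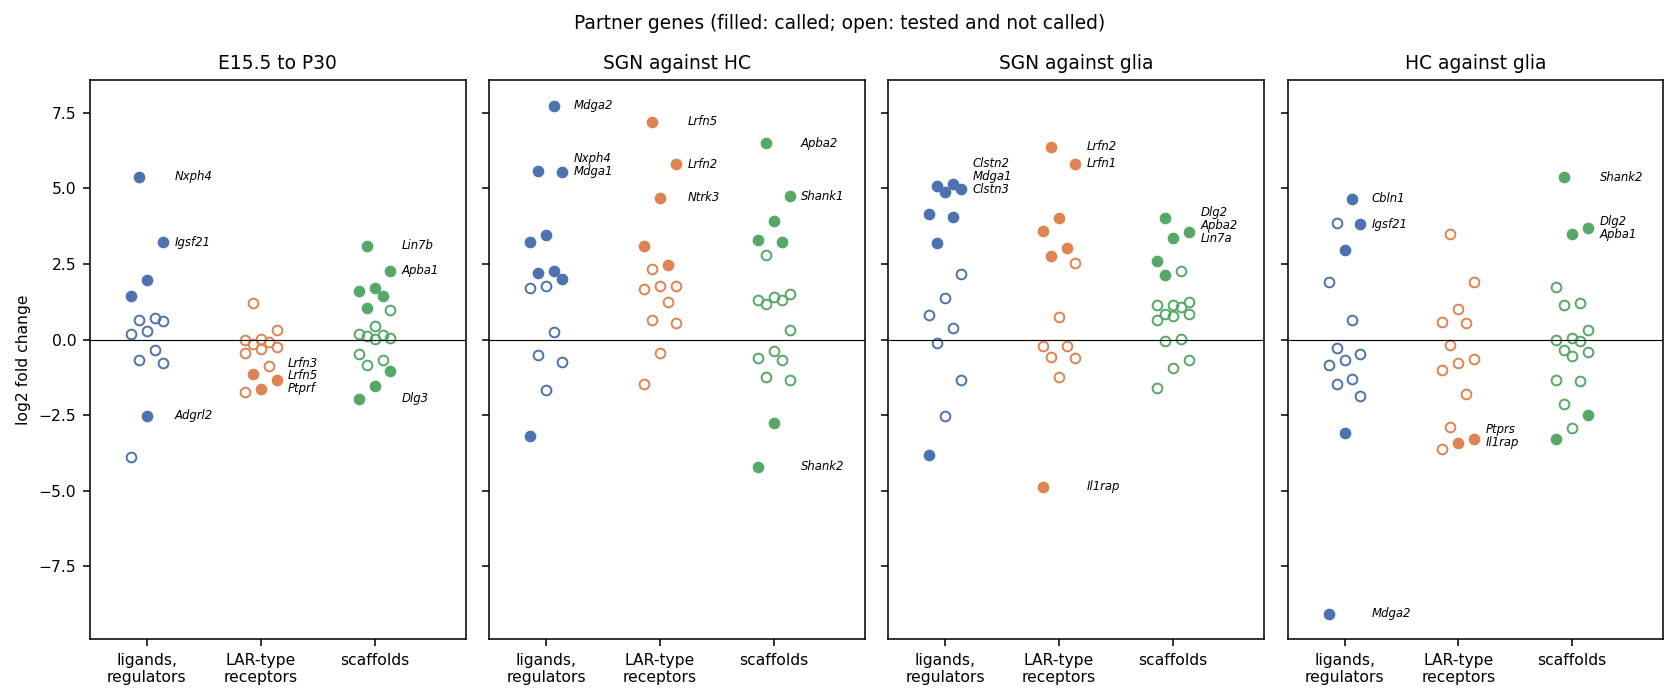
Fitted log2 fold changes of the genes tested in the 3 partner lists (horizontal axis of each panel) in 4 comparisons, with 1 point per gene, filled where called; up to 3 called genes per list are named. Named points reach 7.73 for *Mdga2* in SGNs against HCs and -9.07 for the same gene in HCs against glia, where HC libraries held only 1 to 22 of its counts.

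The genes most like each member across the 21 libraries, by Pearson's r of log2(TPM + 1) over 16550 genes, are a description only, since libraries share cell types and scaling. They were *Aplp1* (r = 0.983) and *Erc2* (0.973) for *Nrxn2*, *Gm43398* (0.960) and *Crim1* (0.955) for *Nrxn3*, and *Gria4* (0.979) and *Rian* (0.972) for *Lrrtm3*. For *Lrrtm4* they were *Fam198b* (0.969) and *Pou3f1* (0.966), and for *Lrrtm2* *Ankrd44* (0.917) and *Ephb6* (0.897). The best r for the others was 0.925 for *Nlgn3* (*Kcna6*), 0.888 for *Nlgn2* (*Arhgap20*), 0.876 for *Nlgn1* (*Gpsm1*) and 0.836 for *Lrrtm1* (*Mfap3l*). On TMM-scaled RPKM, the unit of the levels above, the first gene was the same for *Nrxn2*, *Nrxn3*, *Nlgn3*, *Lrrtm3* and *Lrrtm4*. It became *Kdm2b* (0.899) for *Nlgn1*, *Eif4g1* (0.934) for *Nlgn2*, *Smcr8* (0.895) for *Lrrtm1* and *Ephb6* (0.950) for *Lrrtm2*. The r of *Eif4g1* and *Smcr8* was 0.559 and 0.659 as TPM.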

How the data were processed

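Libraries were made from picked or sorted cells with the Ovation RNA-Seq V2 kit. Per the labels and methods, the authors aligned reads with STAR 2.4.0i (mm10), assigned them to GENCODE vM15 genes with featureCounts, and deposited 1 table of raw counts per gene with a gene length. Strand, multimapping and pair settings are not given in the sources used here. Per library, 67.9% of counts from 1 to 20 were even (median), so a count may be a single read of a pair. The labels describe HCs as picked manually, the methods as sorted. A count of 3 equals 0.0805 to 0.289 CPM, and such floors and limits cover counting error only.

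Symbols and positions came from the GRCm38 annotation (52403 genes matched by identifier), and promoter windows from RefSeq. Counts were scaled with TMM (edgeR 4.0.16) and fitted with limma-voom (limma 3.58.1, R 4.3.3), as the methods name, with a mean per group, two-sided tests and Benjamini-Hochberg adjustment over all genes. The SGN fit held 15 libraries and 15113 genes, the cell type fit 21 libraries and 17531 genes, each gene passing 1 CPM in every replicate of some group. Thresholds between ages were 2-fold and an adjusted p of 0.05, and between cell types 4-fold and 0.01. The fits were first run on simulated data in which every change made was well above these thresholds, so recovery of changes near them was not tested.

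Levels were planned as TPM. Genes under 150 bases held 9.62% to 75.0% of the TPM sum but 0.229% to 5.25% of the counts, so TMM-scaled RPKM was used for levels, chosen after the data were seen. Alternatives were RLE or library-size scaling, no filter, sample quality weights, edgeR's quasi-likelihood test, DESeq2 1.42.0, a replicate block, only the libraries compared, other thresholds and leaving out each library.

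Named genes were all 9 members, their host and overlapping genes, up to 3 called genes by size for each partner list and comparison, and the 2 genes most like each member (fewer are printed). Some planned cell type markers are not reported here. The members and the gene lists were chosen with earlier results of these data known. The blood markers *Hba-a1*, *Hbb-bs* and *Hbb-bt* were also summed (0 to 113.8, highest in E15.5 replicate 1) and failed the filter. The connective tissue markers *Col1a1*, *Col1a2*, *Dcn* and *Lum* summed to 139 to 264 in glia, 22.8 to 24.4 in HCs and 0.173 to 109 in SGNs. Tables were handled with Python 3.11.15, numpy 2.4.6 and pandas 2.3.3, and plots drawn with matplotlib 3.10.9.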

Additional observations from a re-analysis of the deposited data

How the results depend on the processing

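The calls most open to processing were those at single steps and those resting on few counts. Under edgeR's quasi-likelihood test 0 members were called from E15.5 to P1, and under DESeq2 2, where the main count was 1. From P1 to P8 the count of 1 became 0 under the quasi-likelihood test, DESeq2 and no filter. For SGNs against glia at P8, 5 became 3 with sample quality weights. Leaving out 1 library at a time gave 1 to 2 members from E15.5 to P1, 0 to 1 from P1 to P8, 0 from P8 to P14 and from P14 to P30, and 5 from E15.5 to P30. It gave 4 to 6 for SGNs against HCs, 4 to 5 against glia, 3 to 5 at P8 and 7 to 9 for HCs against glia. The causes were not tested. No called member changed sign in any alternative. With library-size scaling *Lrrtm1* (2.47, adjusted p = 0.0144) and *Lrrtm4* (2.49, adjusted p = 0.0226) lost their call against HCs, and *Nlgn1* (-1.86, adjusted p = 0.0126) lost that of HCs against glia while *Nrxn2* (2.27) gained it. *Lrrtm4* also lost its call against HCs with no filter (2.98, adjusted p = 0.0123). *Nlgn1* missed the threshold for HCs against glia when only those libraries were fitted (-2.17, adjusted p = 0.0777). Against glia, *Nrxn3* was called with the quasi-likelihood test (3.02, adjusted p = 0.00476) and DESeq2 (2.93), and *Lrrtm3* fell under 4-fold with them (1.85 and 1.79) and with the replicate block (1.99). Of the values of called members, 560 kept their call and 37 lost it, and 12 uncalled values gained one. These counts include the looser thresholds, under which a called value could not lose its call and which gave part of the 12 gains. With the replicate block the counts in the same order were 1, 1, 0, 0, 5, 6, 4, 5 and 8. The replicate numbers were not taken as pairs, since between neighboring ages at least 1 of the 3 same-number correlations lay below 0.1 (at P14 and P30 they were 0.384, 0.231 and 0.092, with 5 of 6 libraries nearest their own number). At P8 and P30, which were not compared, they were 0.389, 0.18 and 0.154, with 6 of 6. Library-size scaling shifted the median of all genes from -0.01 to -0.48 for E15.5 to P30, from 0.02 to -0.53 for SGNs against HCs and from 0.14 to 0.64 for HCs against glia. The same scaling turned the split of all genes called higher and lower from 2778 and 2446 to 1714 and 3944 for E15.5 to P30, from 767 and 481 to 572 and 638 for E15.5 to P1, from 648 and 476 to 425 and 756 for P1 to P8, from 38 and 43 to 19 and 55 for P8 to P14, from 1847 and 2847 to 1335 and 3779 for SGNs against HCs and from 2838 and 1434 to 3580 and 1018 for HCs against glia. Over all genes, sample quality weights took the calls for SGNs against glia from 4326 to 2017, at P8 from 3662 to 1942 (2125 with only those libraries), for HCs against glia from 4272 to 2225 and from E15.5 to P1 from 1248 to 552 (453 with only those libraries). The quasi-likelihood test took P1 to P8 from 1124 to 649, and leaving out 1 library gave as few as 638 there and 701 from E15.5 to P1. At 2-fold and an adjusted p of 0.05 the cell type counts were 8041 for SGNs against HCs, 7588 against glia, 6943 at P8 and 7351 for HCs against glia, and of the members 8, 7, 6 and 9. At P8 to P14 the calls were 81 and ranged from 28 to 219, and at P14 to P30 they were 9 and ranged from 1 to 110. As TPM, 27 of 63 group means, each as a percent of its gene's summed group means, moved by more than 1 SD. Not every order without overlap between groups that is stated for single genes was checked as TPM. Of the 12 checked, 6 overlapped as TPM, which were *Nrxn2* in SGNs over HCs, *Nrxn3* at P8 over younger ages and at P30 over P14, *Lrrtm1* at P30 over E15.5 and P1, *Lrrtm2* at E15.5 over P1 and *Lrrtm2* in glia over SGNs. Outside these 12, *Nrxn2* at P14 and P30 overlapped the other SGN ages as TPM as well. Depth limits *Lrrtm4* in SGNs and all LRRTMs in HCs.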
